A study of Medicago sativa with 9 samples.

Results

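The leaf transcriptome of alfalfa (*Medicago sativa*) at 0 h of a selenite experiment was described from 3 of the 9 libraries of the series, those labelled 0 h. The other libraries are not analysed here. All libraries of the study came from leaves of plants given 100 mg per kg Se(IV), selenium in the form of selenite, so the 0 h libraries carry a treatment label with a time of 0 h. They are called replicates 1, 2 and 3 here. The labels give no cultivar, plant age, hour of the day or number of plants per library, and they do not say whether the libraries came from separate plants. A standard deviation below therefore measures how far these 3 libraries lie apart, which may be a technical matter. Poly(A) RNA was sequenced in paired reads from inserts of 300 ± 50 bp. The table held 164632 genes, of which 88994 had at least 1 count in these libraries and 75638 had none.

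Leaf cells of a green plant hold many chloroplasts, and most of the proteins that capture light and fix carbon dioxide there are encoded in the nucleus and made in the cytosol. Rubisco is the enzyme that fixes carbon dioxide. Its small chain is a nuclear product, whereas its large chain is encoded in the chloroplast genome. Cultivated alfalfa is an autotetraploid: each chromosome is present in 4 homologous copies that pair freely, and a gene can have a different allele on each. The annotation names chromosomes 1 to 8 and copies 1 to 4 of each, so that 6.3 is the third copy of chromosome 6. It placed 158894 of the genes on such numbered copies and 5738 elsewhere.

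Values are FPKM, fragments per kilobase of transcript scaled to the mapped fragments of the library, as the authors deposited them, unless counts are named. FPKM is a level per length, so genes can be ranked within a library. A gene counts as detected at a mean FPKM of at least 1, which held for 43786 genes (26.6%). Genes with the same description on the same numbered chromosome were also summed, and these sums are called summed copies. They joined the 4 homologous copies and any neighbouring duplicates. Total counts were 46909627, 40426095 and 39936347 in replicates 1, 2 and 3. A count of 0 thus allowed a level of up to 0.0640, 0.0742 and 0.0751 CPM (counts scaled to library size) by the limit of 3 counts, which covers counting error only.

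The tissue label was checked against marker genes. Leaf mesophyll markers, led by the Rubisco small chain and the chlorophyll-binding proteins, summed to 152840, 204246 and 229090 FPKM, and 145 of 162 such genes were detected. None of the 81 root and nodule markers was detected. Leghemoglobin, nodulin-25 and casparian strip membrane protein 1 had no count in any of the libraries. Cell division markers were low, with 4 of 63 detected and a sum between 22.1 and 35.9 FPKM, as were flower and pollen markers at up to 30.1 FPKM. Seed markers were somewhat higher, with 15 of 195 detected and sums of 46.1, 104 and 47.3 FPKM. Phloem markers summed to 1253, 1406 and 425 FPKM, epidermis and guard cell markers to 1581, 1423 and 2549 FPKM, and xylem and fibre markers to 79.8, 209 and 73.1 FPKM. A single description made up most of the phloem and epidermis sums over the libraries. It was SIEVE ELEMENT OCCLUSION B at 712, 1012 and 49.5 FPKM in the phloem list, where 38 of 121 genes were detected. It was non-specific lipid-transfer protein 4 at 1316, 1025 and 2302 FPKM in the epidermis and guard cell list, where 37 of 149 were detected. Of all genes in the table, 26.6% were detected. In such bulk leaf RNA, fewer cells of a type and less RNA per cell cannot be told apart.

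Gene expression was concentrated in a small number of photosynthesis genes. The mean FPKM was at least 10 in 11020 genes, at least 100 in 1215 and at least 1000 in 116. Of the detected genes, 38946 had counts in all 3 libraries, 4011 in 2 and 829 in 1. The 10 most abundant genes held 8.73%, 11.4% and 12.5% of the FPKM of replicates 1, 2 and 3, a mean of 10.9 ± 1.93% (SD, n = 3). The 1000 most abundant genes held 52.5%, 56.8% and 60.3%. Replicate 3 was the most concentrated library and replicate 1 the least: 384 genes held 50% of the FPKM in replicate 3, 506 in replicate 2 and 765 in replicate 1. Genes at 1 FPKM or more numbered 38191 in replicate 3, against 41247 in replicate 2 and 43412 in replicate 1.

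The Rubisco small chain stood at the top of the ranking by a wide margin. Its 6 genes on chromosome 6 summed to 67983, 90238 and 98415 FPKM, or 7.16%, 9.20% and 9.75% of all FPKM. They lay in 2 clusters of 3 genes on the plus strand, MS.gene074247 to MS.gene074249 on copy 6.2 and MS.gene074566 to MS.gene074568 on copy 6.3. No gene with this description lay on copies 6.1 or 6.4. The single most abundant gene was MS.gene074568, at positions 14080471 to 14081697 of copy 6.3, with 34451, 47277 and 43102 FPKM. By itself it held 3.63%, 4.82% and 4.27% of the FPKM of its library. The next was MS.gene074249 of copy 6.2, with 12447, 12621 and 20202 FPKM, highest in replicate 3. The other 4 genes, MS.gene074566, MS.gene074247, MS.gene074567 and MS.gene074248, had means between 4078 and 8788 FPKM. These genes are near-identical in description and length, and how the authors assigned reads that match several of them is not given in the sources used here, so the split among them is less certain than their sum. A second small chain family on chromosome 7, described as small chain 3A, was far lower: its larger group of 15 genes summed to 1744, 2133 and 2637 FPKM.

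Light-harvesting proteins came next, and the libraries differed in them. The chlorophyll a/b binding protein of chromosome 4, a protein of the antenna that passes light energy to the photosystems, summed over 3 genes to 8352, 15547 and 25304 FPKM. It was lowest in replicate 1 and highest in replicate 3. Its 3 genes did not share 1 pattern: MS.gene36470 on copy 4.1 had 2177, 2315 and 11246 FPKM, MS.gene028321 on copy 4.2 had 3021, 9623 and 3392 FPKM, and MS.gene023132 on copy 4.3 had 3155, 3609 and 10666 FPKM. The gene on copy 4.4 with the same length, MS.gene35137, carried the description AB80 and was not in the sum, with 1589, 6252 and 1098 FPKM. Replicate 3 was thus high for the genes of copies 4.1 and 4.3, and replicate 2 for those of 4.2 and 4.4. Chlorophyll a-b binding protein 215 on chromosome 5 summed to 4978, 8597 and 11328 FPKM, and CP26 of photosystem II on chromosome 6 to 5593, 9983 and 8723 FPKM.

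Carbon fixation enzymes were as abundant but steadier. Rubisco activase 2 on chromosome 3, the chaperone that frees Rubisco of bound inhibitors, summed over its 4 genes to 16203, 11841 and 14956 FPKM. Its genes did not follow the sum: MS.gene63480 on copy 3.1 had 4315, 3041 and 5620 FPKM, MS.gene63310 on copy 3.3 had 3228, 1310 and 5845 FPKM, and MS.gene008164 on copy 3.4 had 4953, 4470 and 1847 FPKM. Copies 3.1 and 3.3 were highest in replicate 3, where copy 3.4 was lowest. Chloroplast carbonic anhydrase on chromosome 6, which interconverts carbon dioxide and bicarbonate, had 11522, 11956 and 10020 FPKM over 3 genes, a coefficient of variation (CV, the SD divided by the mean) of 9.10%. Its gene on copy 6.1, MS.gene82916, had 4954, 5976 and 2988 FPKM, and that on copy 6.3, MS.gene34168, had 3402, 3102 and 3506 FPKM. Aldolase of the Calvin cycle appeared under 2 descriptions on chromosome 4, with means of 6430 ± 670 and 5589 ± 741 FPKM. Subunit A of the chloroplast glyceraldehyde-3-phosphate dehydrogenase, the reductive step of the cycle, had 5152 ± 715 FPKM on chromosome 7 (SD, n = 3 for each).

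Electron transport made up most of the remaining top ranks. Plastocyanin on chromosome 3, the copper protein that carries electrons to photosystem I, summed to 7363, 6848 and 9540 FPKM. Ferredoxin on chromosome 2, which takes electrons from photosystem I, had 6857, 5572 and 6390 FPKM. Photosystem I subunits VI, XI and N had means of 7267, 5569 and 5362 FPKM, and each was lowest in replicate 1 and highest in replicate 3. The same order held for the oxygen-evolving enhancer proteins 1 and 2, which stabilise the water-splitting site of photosystem II, at means of 7002 ± 1584 and 6690 ± 1913 FPKM. The 10 kDa polypeptide of photosystem II had 6037 ± 649 FPKM.

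**Figure D1:**
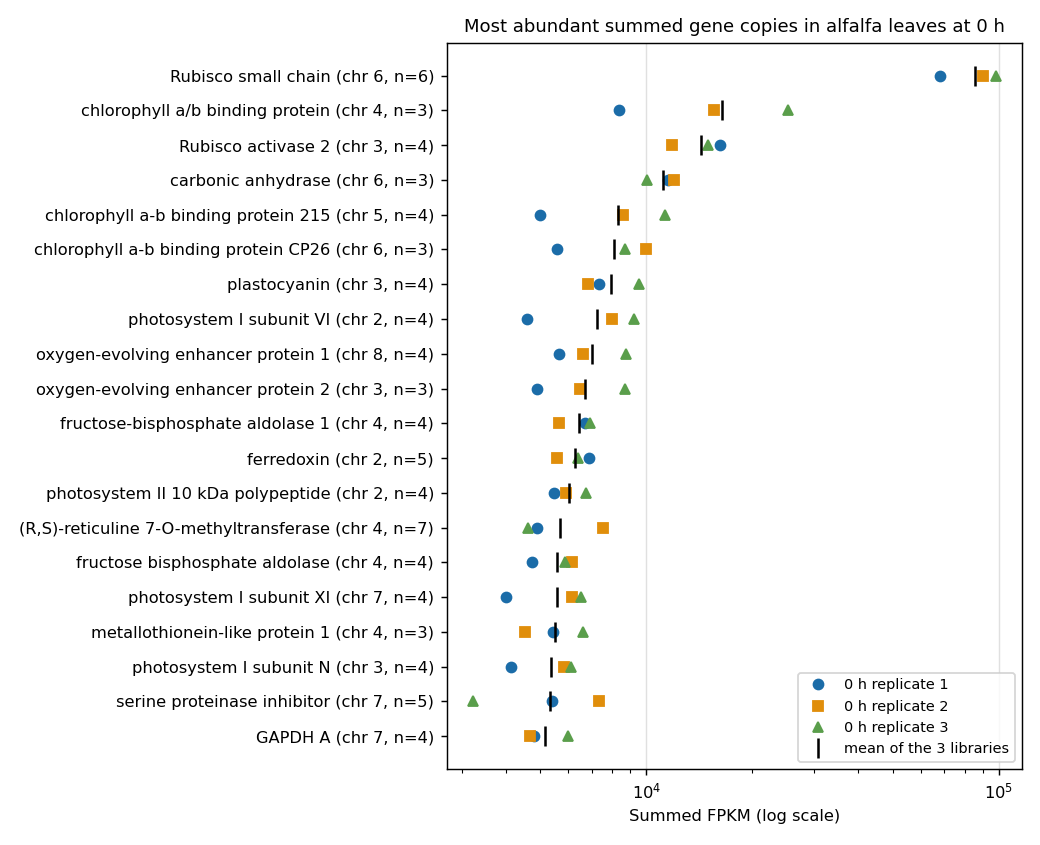
Summed FPKM (log axis) of the 20 most abundant summed copies in each of the 3 libraries at 0 h, with the mean as a black bar; chr is the numbered chromosome and n the number of genes summed. The Rubisco small chain lies between 67983 and 98415 FPKM, and the chlorophyll-binding proteins and photosystem I subunits VI, XI and N are lowest in replicate 1.

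Only 3 of the 20 most abundant summed copies had no part in photosynthesis by description. An O-methyltransferase on chromosome 4 whose description names (R,S)-reticuline, a substrate known from poppy, had 4892, 7549 and 4609 FPKM over 7 genes. Metallothionein-like protein 1 on chromosome 4, a small cysteine-rich metal-binding protein, had 5439, 4538 and 6593 FPKM, most of it from MS.gene037774 on copy 4.3 with 4344, 3249 and 4259 FPKM. A serine proteinase inhibitor on chromosome 7 had 5408, 7350 and 3219 FPKM, highest in replicate 2 and lowest in replicate 3. Together the 10 most abundant summed copies held 14.4%, 17.9% and 20.3% of all FPKM, a mean of 17.6 ± 2.96% (SD, n = 3).

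Photosynthesis and photorespiration together accounted for 30.6%, 36.7% and 41.0% of the FPKM, a mean of 36.1 ± 5.26% (SD, n = 3). Genes were placed by their descriptions into 35 functional lists, each gene in 1 list. The lists of photosynthesis and photorespiration held 921 genes, of which 698 (75.8%) were detected, beside 26.6% of all genes. Within them the photosystem, electron transport and plastid ATP synthase subunits held 10.1%, 12.2% and 14.2% of the FPKM. The Rubisco small chain with its activase held 9.25%, 10.8% and 11.6%, and the antenna proteins 4.59%, 7.58% and 8.48%. All 3 shares were lowest in replicate 1 and highest in replicate 3. Calvin cycle enzymes with carbonic anhydrase, at 4.59 ± 0.177%, and photorespiration, at 1.92 ± 0.111%, did not follow that order (SD, n = 3 for each).

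The photorespiratory pathway recovers carbon from the oxygenation side reaction of Rubisco, across the chloroplast, peroxisome and mitochondrion. Its leading transcript encoded a peroxisomal (S)-2-hydroxy-acid oxidase, the enzyme class of glycolate oxidase, on chromosome 2, with 4486, 4112 and 4523 FPKM. The H protein of the mitochondrial glycine cleavage system had 2918, 3283 and 4369 FPKM, and serine-glyoxylate aminotransferase 2107, 1907 and 2125 FPKM. In pigment synthesis, the cyclase that forms the fifth ring of chlorophyll led with 2227, 2398 and 2474 FPKM on chromosome 7.

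Protein synthesis was the next largest function by FPKM. Cytosolic ribosomal proteins held 4.10%, 3.47% and 3.44% of the FPKM, with 795 of 1141 genes (69.7%) detected, beside 26.6% of all genes. Plastid and mitochondrial ribosomal proteins held 1.35 ± 0.131%. The leading transcript of the cytosolic list was a ubiquitin fused to ribosomal protein S27a, at 1845, 1667 and 1589 FPKM. Elongation factor 1-alpha, which brings aminoacyl-tRNA to the ribosome, had 1439 ± 147 FPKM on chromosome 6. Antioxidant and thiol enzymes held 2.45 ± 0.168% and were led by catalase-4 on chromosome 3, which breaks down the hydrogen peroxide of the peroxisome, at 2276, 1586 and 1649 FPKM. Ascorbate peroxidase on chromosome 4 had 1673, 1660 and 955 FPKM (SD, n = 3 for each mean).

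Regulatory genes were many and mostly low in FPKM. The 8653 genes described as transcription factors, of which 1887 (21.8%) were detected, held 1.36 ± 0.112% of the FPKM. The 8987 kinase and receptor genes, of which 2594 (28.9%) were detected, held 1.78 ± 0.155%. Over all genes 26.6% were detected, so the share of kinases and receptors detected was near that of all genes. By raw counts, which are not divided by length, kinases and receptors held 3.25%, 3.06% and 2.86% and cytosolic ribosomal proteins 2.35%, 2.06% and 2.10%, so the order of these lists turned. A bZIP transcription factor 11 on chromosome 4 led the transcription factor list, at 488, 364 and 189 FPKM. B-box zinc finger protein 24, a transcription regulator of light responses that was placed in the clock and light list, was higher, at 708, 269 and 801 FPKM on chromosome 2. LHY, a morning component of the plant clock, had 228, 222 and 187 FPKM on chromosome 7. Retrotransposon genes were mostly under the detection threshold: 122 of 5394 (2.26%) were detected, and the list held 0.161 ± 0.0480% of the FPKM. One group of 12 genes on chromosome 2, described as a putative reverse transcriptase, made up most of that at 934, 1729 and 797 FPKM. Genes without an informative description held 13.2 ± 0.664%, and genes with another description 21.5 ± 1.83% (SD, n = 3 for each).

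**Figure D2:**
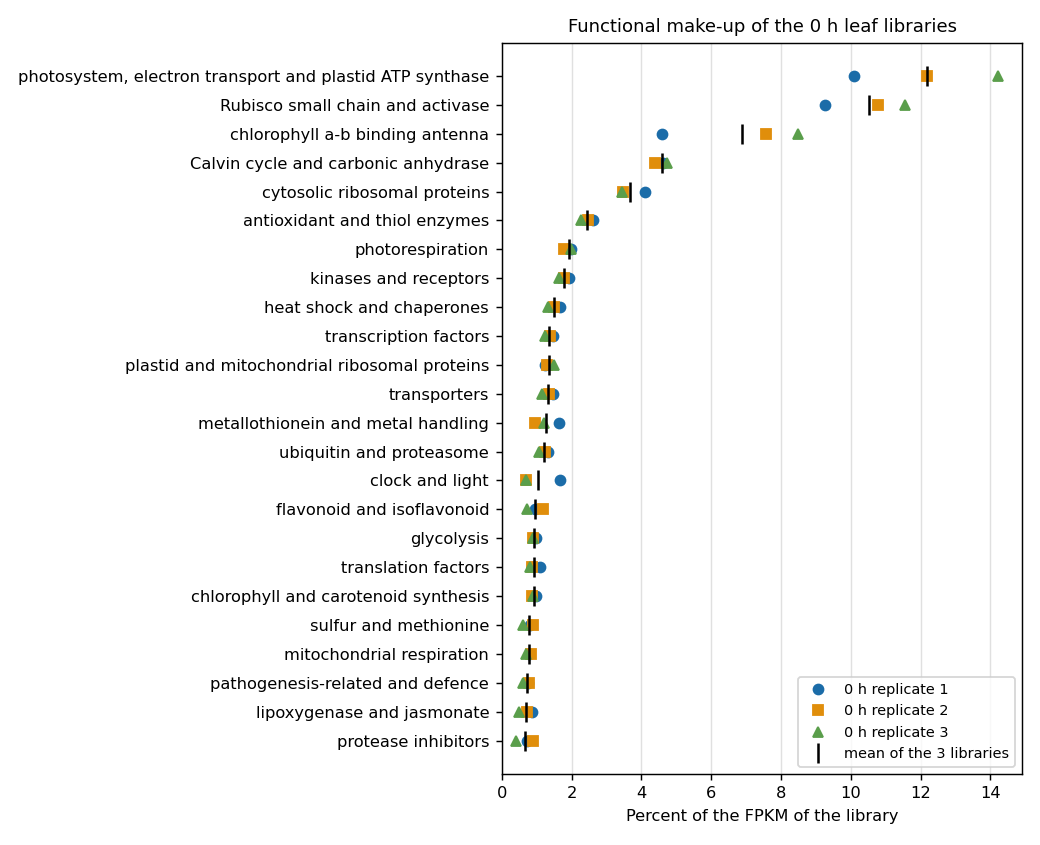
Percent of the FPKM of each 0 h library (x axis) held by the 24 functional lists of highest mean share, with the mean as a black bar; genes with another or no informative description are left out. The photosystem, Rubisco and antenna lists are lowest in replicate 1 and highest in replicate 3. The metallothionein list is highest in replicate 1, as is the clock and light list, which includes the early light-induced proteins.

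The gene ontology terms deposited with the table also placed the largest share in the chloroplast. Genes with the term chloroplast held 40.5%, 41.2% and 44.5% of the FPKM, and those with chloroplast thylakoid membrane, which overlap them, held 28.7%, 32.8% and 36.1%. Of 1430 thylakoid membrane genes 1020 (71.3%) were detected, beside 11425 of 38032 genes with the term nucleus. Nuclear-term genes held 12.8 ± 1.16% and mitochondrial-term genes 5.88 ± 0.566% (SD, n = 3 for each). In the KEGG pathway maps, which cover 49751 genes, antenna proteins held 4.32%, 7.36% and 8.29%.

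Transcripts of the sulfate assimilation route, which reduces sulfate and is also known to reduce selenate, were present at levels well below those of photosynthesis. The plants here were given selenite, which is known to enter roots largely through phosphate transporters. The 5'-adenylylsulfate reductase genes, the committed reduction step, summed to 1639, 837 and 856 FPKM with 5 of 8 genes detected. ATP sulfurylase, which activates sulfate, had 609, 426 and 490 FPKM, sulfate transporters 552, 362 and 589 FPKM, and cysteine synthase 484, 418 and 479 FPKM. Methionine cycle genes were highest in replicate 2: methionine synthase had 1403, 3228 and 1248 FPKM, S-adenosylmethionine synthase 984, 1896 and 809 FPKM, and adenosylhomocysteinase 643, 1509 and 682 FPKM. The 9 genes described as homocysteine S-methyltransferase were all under the detection threshold, with sums of 0.163 to 0.468 FPKM.

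Specialised metabolism varied between the libraries more than the Calvin cycle did, as did nearly all other lists. Among summed copies at a mean of at least 10 FPKM, the median CV was 42.1% in the flavonoid list, 34.9% in the lipoxygenase and jasmonate list and 33.2% in the terpenoid list, beside 16.7% in the Calvin cycle list and 25.3% over all, and these differences were not tested. Lists of other functions were as high, such as lipid transfer proteins at 43.6%, cell wall at 41.0% and antenna at 35.2%. Only cytosolic ribosomal proteins, at 14.7%, were below the Calvin cycle list. The flavonoid and isoflavonoid list held 0.942%, 1.17% and 0.710% of the FPKM. Most of that came from the O-methyltransferase group whose description names (R,S)-reticuline, given above, at 4892, 7549 and 4609 FPKM. It held 0.580% of the FPKM on average, beside 0.940% for the list. Chalcone synthase on chromosome 7, which begins flavonoid synthesis, had 933, 1158 and 556 FPKM. The terpenoid and sterol list held 0.584%, 0.295% and 0.355%. Its leading member, the reductoisomerase of the plastid isoprenoid pathway on chromosome 8, had 2160, 956 and 1509 FPKM, and beta-amyrin 24-hydroxylase, an enzyme of soyasaponin synthesis, had 867, 409 and 371 FPKM. A 9-lipoxygenase on chromosome 3, described as linoleate 9S-lipoxygenase 1, had 2810, 2575 and 1117 FPKM. Caffeic acid O-methyltransferase, a lignin enzyme, had 1416, 3123 and 486 FPKM from a single gene of that description on chromosome 4. Another group, 4 genes on chromosome 3 described as caffeic acid 3-0-methyltransferase, differed less, at 224, 289 and 259 FPKM. Xylem and fibre markers were also highest in replicate 2, at 209 FPKM against 79.8 and 73.1 FPKM in replicates 1 and 3. Their part in the value of the chromosome 4 gene was not tested.

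Differences between the libraries ran along functional lines. Among summed copies at a mean of at least 10 FPKM, 19 of the 23 antenna groups were lowest in replicate 1, beside 1797 of 7445 over all groups. Replicate 3 was the highest library for 55 of 89 photosystem and electron transport groups and for 29 of 46 organellar ribosomal protein groups, beside 1755 of 7445 over all. Replicate 1 was highest for 118 of 195 cytosolic ribosomal protein groups and 19 of 30 metal-handling groups, beside 3156 of 7445. Replicate 2 was highest for 47 of 80 cell wall groups and 45 of 73 groups of mitochondrial respiration, beside 2534 of 7445. These counts describe 3 libraries, and members of a list are not independent of each other.

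Early light-induced proteins and ferritins marked replicate 1. Early light-induced proteins bind pigment in the thylakoid when light exceeds what the leaf can use, and their 20 genes summed to 12800, 4720 and 4013 FPKM. All 20 were detected, beside 26.6% of all genes. They were placed in the clock and light list, where their groups on chromosome 1 held 0.408% and 0.324% of the FPKM on average. The whole list held 1.67%, 0.703% and 0.704%, a mean of 1.03%. Ferritin, the plastid iron store, summed to 3147, 567 and 830 FPKM. Ferritin-3 on chromosome 4 had 707, 23.5 and 12.0 FPKM, and ferritin-2 on chromosome 5 had 2102, 535 and 794 FPKM. The metallothionein and metal-handling list as a whole held 1.63%, 0.956% and 1.20% of the FPKM.

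A few storage and carbon and nitrogen transport transcripts were far higher in replicate 2. Asparagine synthetase on chromosome 5, which forms the main nitrogen transport compound of temperate legumes, had 101, 855 and 26.5 FPKM. The plastid glucose-6-phosphate/phosphate translocator 2, which brings hexose phosphate into plastids, had 7.13, 188 and 4.70 FPKM on chromosome 2. Bark storage protein A had 1518, 4166 and 1425 FPKM, highest in replicate 2 as well. Other nitrogen assimilation genes did not follow: nitrate reductase had 243, 95.7 and 108 FPKM on chromosome 5 and nitrite reductase 277, 111 and 178 FPKM on chromosome 4, both lowest in replicate 2, and chloroplast glutamine synthetase was highest in replicate 3, at 1988, 2105 and 2678 FPKM. Genes described as SIEVE ELEMENT OCCLUSION B, a phloem plug protein of legumes, were low in replicate 3, as given above, over 63 genes. Other phloem markers differed less: PHLOEM PROTEIN 2-LIKE A9 had 410, 247 and 279 FPKM, PHLOEM PROTEIN 2-LIKE A1 had 82.3, 112 and 54.0 FPKM, and 16 kDa phloem protein 2 had 16.8, 8.98 and 16.6 FPKM. In replicate 3, a group of 16 genes on chromosome 3 described as putative meiosis arrest female protein had 316 FPKM, against 1.42 and 0.647 FPKM in replicates 1 and 2.

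Some transcripts hardly differed in FPKM. Among 4729 summed copies at a mean of at least 20 FPKM, the lowest CV belonged to 4-coumarate-CoA ligase-like 7 on chromosome 2, with 68.9, 69.8 and 69.3 FPKM and a CV of 0.612%. A putative nepenthesin, an aspartic protease, had 169, 172 and 169 FPKM. Ribosomal protein L23 on chromosome 7 had 281, 285 and 284 FPKM, the mitochondrial glutaredoxin S15 had 131, 133 and 133 FPKM, and the acetyltransferase subunit NAA10 had 45.9, 45.5 and 46.4 FPKM. Choline/ethanolaminephosphotransferase 1, a phospholipid enzyme, had 41.7, 42.0 and 40.8 FPKM, but its counts were less level, at 2183, 1795 and 1171. The transcripts above were picked for the lowest of 4729 CVs, and whether they are steadier than others was not tested. Photosystem II 22 kDa protein, which acts in the safe dissipation of excess light, had a CV of 4.07% at 4380 FPKM, in contrast to the antenna proteins.

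Over all 43786 detected genes, the median CV between the 3 libraries was 46.4%, where counting error alone gave 6.70%. It was 50.8% at 1 to 10 FPKM and 30.9% at 1000 FPKM and over. Summing the copies lowered it to 32.5% over 17087 summed copies and to 22.6% at 1000 FPKM and over. The common biological coefficient of variation of the counts, estimated with edgeR and a single mean, was 1.03 for 56788 genes and 0.701 for 19300 summed copies. These had at least 1 CPM in at least 1 library and at least 10 counts in total. A gene high in a single library could enter through that library alone, which raises the estimate. The values therefore cannot be set against the median CV of the detected genes. Pearson's r of log2(FPKM + 1) between libraries was 0.74 to 0.78 across genes and 0.89 to 0.91 across summed copies, so that the 3 pairs were alike. Genes are not independent replicates, and they share libraries and depth. A pair of libraries differed by more than 2-fold in 28.7% to 32.1% of genes and 18.9% to 20.6% of summed copies.

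**Figure D3:**
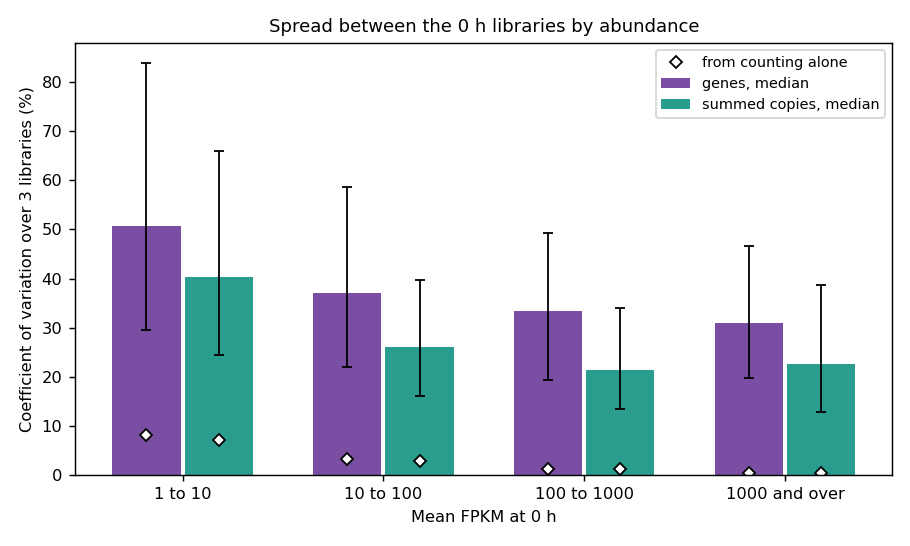
Median coefficient of variation of FPKM over the 3 libraries at 0 h (y axis, percent) for genes and for summed copies in 4 classes of mean FPKM; whiskers run from the lower to the upper quartile and diamonds give the value expected from counting error alone. Summed copies vary less than genes in every class, at 40.4% against 50.8% in the lowest and 22.6% against 30.9% in the highest.

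Single copies of a gene could have a high FPKM in some libraries and almost none in another. Whether the plants sampled carried every annotated copy is not given, so a low FPKM does not show that a copy was silent. Among genes at a mean of at least 10 FPKM, the lowest library was under 0.1 times the highest in 1040 of 11020 (9.44%). The most abundant was MS.gene002228 on copy 2.3, described as PELPK1, with 90.5, 278 and 2135 FPKM. A pair of serine proteinase inhibitor genes on chromosome 7 had opposite patterns: MS.gene023874 on copy 7.1 had 516, 1875 and 102 FPKM, and MS.gene52244 on copy 7.4 had 893, 8.68 and 1455 FPKM. The Rubisco small chain 3A gene MS.gene92217 on copy 7.1 had 1209, 810 and 8.47 FPKM, and FTSH 2, a thylakoid protease that clears damaged photosystem II, had 760, 717 and 12.1 FPKM from MS.gene35176 on copy 4.4.

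The sum over the copies could stay level while its members changed. MS.gene014321 on copy 3.4, a gene for subunit B of chloroplast glyceraldehyde-3-phosphate dehydrogenase, had 806, 606 and 14.5 FPKM, whereas its group summed to 3531, 3076 and 3538 FPKM. The catalase-4 group was less level, with a sum of 2276, 1586 and 1649 FPKM, and its members changed more than the sum. MS.gene014343 on copy 3.2 had 0, 362 and 694 FPKM, that is 0, 25336 and 48728 counts. MS.gene52766 on copy 3.1 had the opposite pattern, with 602, 337 and 0 FPKM. The genes on copies 3.3 and 3.4 were read in every library, at 783, 388 and 752 FPKM and at 892, 499 and 203 FPKM.

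Use of the 4 homologous copies was examined in groups with exactly 1 member on each copy. There were 8275 such groups, and 3957 had at least 200 counts in every library. In 86.9% of these the members started within 10 Mb of each other on their copies. With an even split each copy would hold 25% of the FPKM of its group. The highest copy held a median of 40.8%, 44.1% and 44.6% in replicates 1, 2 and 3, a mean of 43.2 ± 2.10% (SD, n = 3). It held more than 50% in 25.5%, 34.7% and 37.2% of the groups. Each copy number led about equally often: copies 1, 2 and 3 were the highest in 25.3%, 25.7% and 23.9% of groups on average, and copy 4 in the rest. The highest of 4 shares exceeds 25% by construction, so its size is read beside the differences between libraries.

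Which copy was highest often differed between the libraries. The same copy was highest in all 3 libraries in 1387 groups (35.1%), and 465 groups had a different one in each. The copy shift, the percentage of a group's reads that sat on other copies in 1 library than in another, had a median of 21.1% between replicates 1 and 2, 22.4% between 1 and 3, and 24.1% between 2 and 3. Counting error alone gave 2.65% to 2.86%. In 1797 groups a copy had no count in some libraries and counts in others, with 100 counts or more in 1334 of them. All 4 copies had counts in every library in 2040 groups (51.6%). The median CV was 43.5% for single members and 23.8% for the sums of the same groups.

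Abundant groups had more even FPKM shares and a smaller copy shift. The median share of the highest copy was 45.4% in groups under 50 FPKM and 36.3% in the 62 groups at 1000 FPKM and over, and the median copy shift was 24.8% and 13.3%. Photosystem and electron transport groups had a median highest share of 37.4 ± 1.85% and kinases and receptors 43.9 ± 2.08% (SD, n = 3 for each), and the difference was not tested. Clock and light genes had the same highest copy in all libraries in 70.6% of 17 groups, beside 35.1% of all groups. This was picked as the highest value among the lists of at least 10 groups. The median copy shift of the clock and light groups was 22.0%, beside 23.5% over all. The same copy was highest in all libraries in 30% of 40 photosystem and electron transport groups and in 25% of 12 Calvin cycle groups.

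Photosystem I subunit VI on chromosome 2 showed a nearly even split of FPKM at a high level. Its copies 1 to 4 held 25.7%, 26.8%, 25.8% and 21.8% in replicate 1, and 24.96%, 26.2%, 23.9% and 24.9% in replicate 3, although the sum was 4573 FPKM in replicate 1 and 9214 FPKM in replicate 3. Peptidyl-prolyl isomerase 1 on chromosome 3, a protein-folding enzyme, had a mean copy shift of 0.652% while its sum was 137, 30.4 and 40.2 FPKM. That shift lay below the median of 2.65% to 2.86% that counting error alone gave over all groups. How reads that match several copies were assigned is not given, so even shares need not mean even use of the copies. All-trans-retinol 13,14-reductase on chromosome 8, auxin-induced protein 6B on chromosome 3 and the plastid iron-sulfur assembly protein IscA on chromosome 4 were also among the most even, with a highest copy at 27.5%, 27.5% and 27.9% on average. Plastocyanin had its 4 copies at 15.4% to 30.4% in replicate 1 and at 23.4% to 26.0% in replicate 3.

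Other groups had most of their FPKM on a single annotated copy in every library. The same copy held over 50% in all 3 libraries in 265 groups (6.70%), over 70% in 49 and over 90% in 15. Small nuclear ribonucleoprotein E of chromosome 5, part of the splicing machinery, was read from copy 1 at 100%, 91.1% and 93.2% of a sum of 54.6, 49.7 and 58.8 FPKM. CURVATURE THYLAKOID 1D on chromosome 5, of a family that bends the thylakoid at grana margins, was read from copy 4 at 87.1%, 96.5% and 90.3% of a sum of 152, 158 and 189 FPKM. The mitochondrial uncoupling protein 5 of chromosome 5 was also read mainly from copy 4, at 75.5%, 95.8% and 75.6%. Both genes are neighbours on all 4 copies: on copy 5.4 the uncoupling protein gene MS.gene44265 ends at 22702585 and MS.gene44266 for the thylakoid protein starts at 22709742. A haloacid dehalogenase-like hydrolase on chromosome 4 was read from copy 4 at 51.4%, 96.0% and 100%.

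The largest copy shift among the 870 groups at 50 FPKM or more belonged to 40S ribosomal protein S29 on chromosome 3, at a mean of 71.4% of reads. Its sum was nearly constant at 207, 205 and 196 FPKM. Copy 4 held 69.1% of it in replicate 1, copies 1, 3 and 4 held 32.1%, 32.1% and 35.8% in replicate 2, and copy 2 held 86.2% in replicate 3 and 0% in replicate 2. The translation factor SUI1 homolog on chromosome 4 was read from copy 2 at 59.7% and 50.5% in replicates 1 and 2, and from copy 3 at 87.8% in replicate 3. Malate dehydrogenase on chromosome 1 had its highest share on copy 4 in replicate 1 (38.2%), on copy 2 in replicate 2 (65.3%) and on copy 3 in replicate 3 (40.5%). The plastid 1,4-alpha-glucan-branching enzyme 1 of starch synthesis on chromosome 3 and the sorting protein VPS60.1 on chromosome 1 had mean copy shifts of 55.4% and 51.4%.

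**Figure D4:**
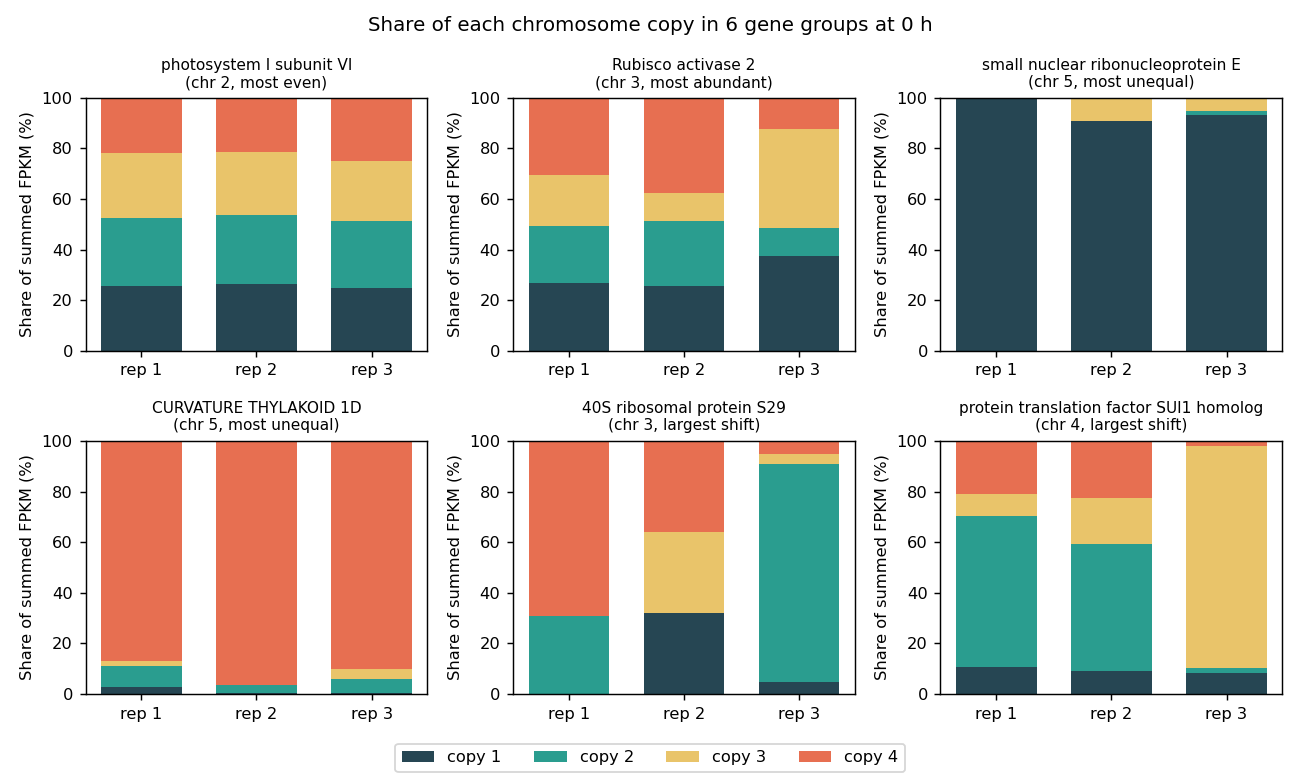
Share of the summed FPKM (y axis, percent) on each of the 4 chromosome copies in the 3 libraries at 0 h, for 6 groups with 1 gene on each copy. Photosystem I subunit VI is split nearly evenly, ribonucleoprotein E and CURVATURE THYLAKOID 1D are read mainly from 1 copy in every library, and 40S ribosomal protein S29 and the SUI1 homolog change their leading copy between libraries.

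Neighbouring groups tended to share their highest copy. In 885 pairs of groups whose genes started within 20 kb of each other on every copy and did not overlap, the highest copy was the same in 35.8%, 38.9% and 36.5% of pairs in replicates 1, 2 and 3. In pairs more than 10 Mb apart on the same chromosome it was the same in 24.96% to 25.1%. At 20 to 100 kb the values were 31.2%, 33.9% and 32.1%, and at 100 kb to 1 Mb they were 26.8%, 26.7% and 26.8%. The change of the 4 shares between a pair of libraries also went together in close neighbours, with Pearson's r of 0.18 to 0.23 across pairs within 20 kb and of about 0 beyond 1 Mb. Pairs share genes and libraries, so these values are a description and no test was made.

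Summed over whole chromosomes, the 4 copies contributed about equally apart from chromosome 6. Copies 1, 2, 3 and 4 held 23.1 ± 0.462%, 26.0 ± 0.371%, 29.7 ± 1.23% and 21.2 ± 0.499% of the FPKM on numbered chromosomes (SD, n = 3). On chromosome 6 they held 11.2 ± 1.96%, 31.0 ± 4.05%, 52.4 ± 1.35% and 5.36 ± 1.10%. Without the Rubisco small chain genes, a step chosen after the values were seen, the shares over all chromosomes became 25.3%, 25.4%, 26.0% and 23.3%. On chromosome 6 they became 29.8%, 29.1%, 26.9% and 14.3%. Copy 6.4 also carried the fewest annotated genes, 2366 against 3087 to 3468 on the other copies, and its part in the low share was not tested. On the other chromosomes the mean shares ran from 21.2% for copy 5.2 to 30.2% for copy 5.1.

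**Figure D5:**
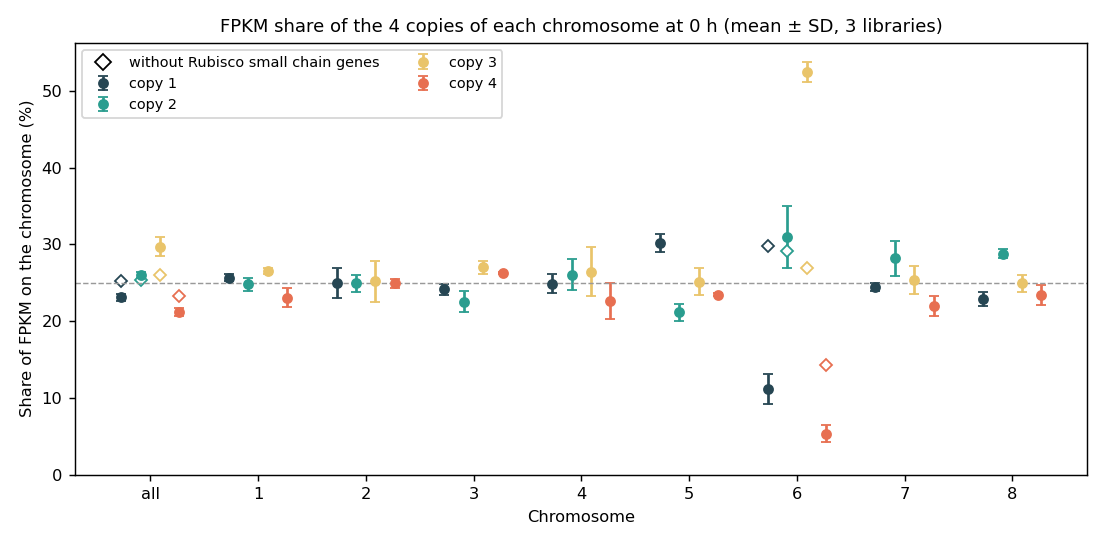
Share of FPKM (y axis, percent) on copies 1 to 4 of each chromosome and of all chromosomes at 0 h, as mean ± SD of 3 libraries; open diamonds leave out the Rubisco small chain genes and the dashed line is an even split of 25%. Copy 6.3 holds 52.4% of chromosome 6, and 26.9% without the Rubisco small chain genes.

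Chromosomes 3 and 4 held the most FPKM, at 16.98 ± 0.699% and 15.6 ± 0.364%, followed by chromosome 6 at 14.1 ± 1.45% (SD, n = 3 for each). Chromosome 6 reached that share with the fewest detected genes, 2247 of 12375 (18.2%), beside 25.9% to 29.3% on the other chromosomes. Genes outside the numbered chromosomes held 1.59%, 1.42% and 1.36% of the FPKM.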

How the data were processed

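RNA of alfalfa leaves was sequenced in 9 libraries, of which the 3 of 0 h were used, grouped by their treatment label. Counts and FPKM per gene were made by the authors and deposited in 1 table. HISAT and StringTie were used, per the submitters' processing notes. Their versions and roles, the annotation, and the treatment of reads that match several copies are unstated. The genome build is not given in the sources used here. The deposited FPKM was listed as 0.0001 where the count was 0 and was read as 0. Coordinates are those of the table, and no gene sequences were used here.

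Everything else was computed with Python 3.11.15, pandas 2.3.3 and numpy 2.4.6, and the biological coefficient of variation with edgeR 4.0.16 in R 4.3.3. Genes were summed by description and numbered chromosome. The 4548 genes of empty or generic description were not summed. Functional lists and markers are patterns on descriptions, and each gene went to the first list that took it. Copy shares used FPKM, and copy shifts used counts. The copy shift was tested on simulated data.

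With 1 group no comparison between groups was possible and no test was run, so values are given per library or as mean ± SD. Members, lists and rules were chosen with earlier results of these data known. Named were the 15 genes and 20 summed copies of highest mean FPKM, the leading summed copies of each list, the 8 of highest and 8 of lowest CV at 20 FPKM or more, the 6 groups most even, most unequal and most shifted in copy use at 50 FPKM or more, and the 5 most abundant genes with a lowest library under 0.1 times the highest. Of these, groups with no informative description were left unnamed. Other genes, the sulfate route and the neighbour pairs were chosen after values were seen.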

Additional observations from a re-analysis of the deposited data

How the results depend on the processing

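No paired analysis was possible because only 1 group was described. The count of detected genes stayed within 1.5 times of 43786 under every setting tried. The 10 most abundant genes held 7.97% as raw counts and 4.82% without the Rubisco small chain. The 10 most abundant summed copies held 10.5% without it. Of 37 list shares, 30 moved by more than 1 SD as raw counts, since counts weight long transcripts (cytosolic ribosomal proteins 2.17%, metal handling 0.504%). None moved when genes under 1 FPKM were dropped. Leaving out a library cannot move a mean of 3 libraries by 1 SD of the same libraries, so that setting cannot decide the question for list shares.

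The median CV of 46.4% became 76.6% with every gene that had a count, 38.4% at 5 FPKM or more and 32.5% for summed copies. With a library left out it was 35.9% to 39.8%. Those values are CVs over a pair of libraries, where a median CV tends to be smaller, so they cannot be set against 46.4%. As an SD of log2 values over all libraries, the spread was 0.53 with a pseudocount of 1 and 0.68 with 0.1. The share of the highest copy was 41.0% at 1000 counts or more and 45.3% with any number of members per copy, and the copy shift was 19.5% and 21.0%. The copy shift was 21.2% to 24.1% with a library left out. Chromosome copies 1, 3 and 4 held 24.1%, 27.9% and 22.2% of raw counts. In groups with 1 member on each copy, copies 1 to 4 held 26.2%, 23.6%, 25.03% and 25.1%. Without the Rubisco small chain they held 25.3%, 25.4%, 26.0% and 23.3%. Leaving out the Rubisco small chain, and limiting copy groups to members within 10 Mb, were chosen after seeing the data.

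Near-identical copies can exchange reads, and whether the plants carried every annotated copy is not given. Values of single copies are therefore less certain than their sums. With 3 libraries, the order of neighbours in a ranking was not tested.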
